A study of Bos taurus with 33 samples.

Results

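Transcripts of 10 antioxidant enzymes and redox proteins were examined in bovine oocytes and in the cumulus cells (CC) that surround them. They were SOD1, SOD2, CAT, GPX1, GPX4, PRDX1, PRDX2, TXN, GCLC and GSR, chosen by gene symbol and joined between the oocyte and the CC table by Ensembl identifier. Of these 10 genes, 9 had a row among the 17543 genes listed in either table, and GPX1 was not analysed here. SOD2 carried no symbol and was matched through its RefSeq protein accession, and the symbols of SOD1 and GPX4 stood in 1 of the tables only. Of the 9, 8 passed the filter on low values in both cell types. Values are in CPM, the reads of a gene scaled to a fixed total of reads on genes, and a transcript was retained if 4 or more of the oocyte pools, or 5 or more of the CC pools, reached 5 CPM. This left 10076 transcripts in oocytes and 9712 in CC. GPX4 did not pass in either.

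The oocyte and CC pools came from adult suckled postpartum beef cows whose follicular wave was synchronised with gonadotropin-releasing hormone (GnRH) followed by prostaglandin F2 alpha. Small pools came from cows with a largest follicle of up to 11.7 mm and large pools from cows with a follicle of at least 12.7 mm. Cows of both these classifications showed no estrus and received a second GnRH injection to induce the gonadotropin surge. Spontaneous pools came from cows that showed estrus with a follicle of 11.7 to 14.0 mm and had their own surge without the second injection, so that estrus and the absence of that injection cannot be told apart. The complexes were aspirated about 23 h after the second injection or estrus according to the protocol, and about 20 h according to another field of the labels. Each pool held 4 oocytes, or the CC of 4 complexes, and the series held 16 pools of oocytes, of which 6 were small, 6 large and 4 spontaneous, beside 17 of CC (6, 6 and 5). RNA was amplified as cDNA before sequencing, and the p-values below measure the spread between such pools.

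Aerobic metabolism releases superoxide, which superoxide dismutases turn into hydrogen peroxide. Catalase, glutathione peroxidases and peroxiredoxins then remove the peroxide, the last 2 kinds drawing electrons from glutathione and thioredoxin, and NADPH-dependent reductases return these carriers to their reduced form. In the cumulus-oocyte complex the CC supply the oocyte with metabolites and precursors of glutathione through gap junctions, and glutathione stored in the oocyte is known for its part in remodelling the sperm head after fertilisation.

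Sequencing depth was between 7664375 and 17934916 gene-assigned reads for oocytes and between 1911600 and 5772431 for CC. Its median in CC was 3.28e+06 for small, 4.12e+06 for large and 5.13e+06 for spontaneous pools. In oocytes the medians were 1.23e+07, 1.26e+07 and 1.49e+07 in the same order. At these depths a value of 0 allows up to 0.391 CPM in the shallowest oocyte library and up to 1.57 CPM in the shallowest CC library (3 reads, counting error only). All 11 matched oocyte markers, such as the zona pellucida and oocyte growth factor genes, were above 5 CPM in mean in the oocyte pools. The 5 of them with a row in the CC table summed to at most 6.76 CPM in any CC pool. Markers of cumulus and granulosa cells summed to 12457 to 34260 CPM in CC and still to 814 to 4451 CPM in the oocyte pools, highest in small replicate 3 and large replicate 6 (4239 CPM). VCAN had the largest median of them in oocytes (863 CPM, against 15808 CPM in CC). STAR, HAS2 and GREM1 had higher medians in oocytes (388, 186 and 5.18 CPM) than in CC (5.64, 50.5 and 1.14 CPM), and the others were higher in CC. The sum is therefore not read as the amount of CC in an oocyte pool. Oocyte small replicate 3 was also the shallowest oocyte library, with 5.0% of its reads on mitochondrially encoded genes against 0.846 to 2.68% in the others. That share was 12.6 to 44.0% in CC, and its median was 23.5% for small, 21.4% for large and 15.6% for spontaneous pools. Because these reads enter the CPM total, the values of the 8 enzymes in CC are given below also with the mitochondrially encoded genes left out where this changes a call or a direction.

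In CC, 3 of the 8 enzymes passed the test in a comparison with spontaneous pools and each was higher there. Catalase was higher than in small pools by 1.44-fold, and PRDX1 and TXN were higher than in large pools by 2.18-fold and 1.45-fold (ratios of mean CPM). The mean of all 8 enzymes was highest in the spontaneous CC pools, and that of 7 of the 8 lowest in the large CC pools, catalase being the exception. The 2 comparisons share the spontaneous pools. From small to spontaneous CC 1 of 8 enzymes was called, against 2.38% of all transcripts. From large to spontaneous CC 2 of 8 were called, against 1.66%. With median-of-ratios scaling no enzyme passed in either comparison. No enzyme passed in CC between small and large follicles (0 of 8, against 0.813% of all transcripts). None passed in oocytes from small to large (against 0.655%), from small to spontaneous (0.774%) or from large to spontaneous pools (0.943%). A transcript was called at a nominal p of 0.01 or less in limma's moderated test on log2(CPM + 1), two-sided, and the fold changes below are on that scale. In the oocyte comparisons with small pools it had to pass both with all pools and without small replicate 3. None of the 8 enzymes had a Benjamini-Hochberg adjusted p under 0.05 over all retained transcripts.

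**Figure D1:**
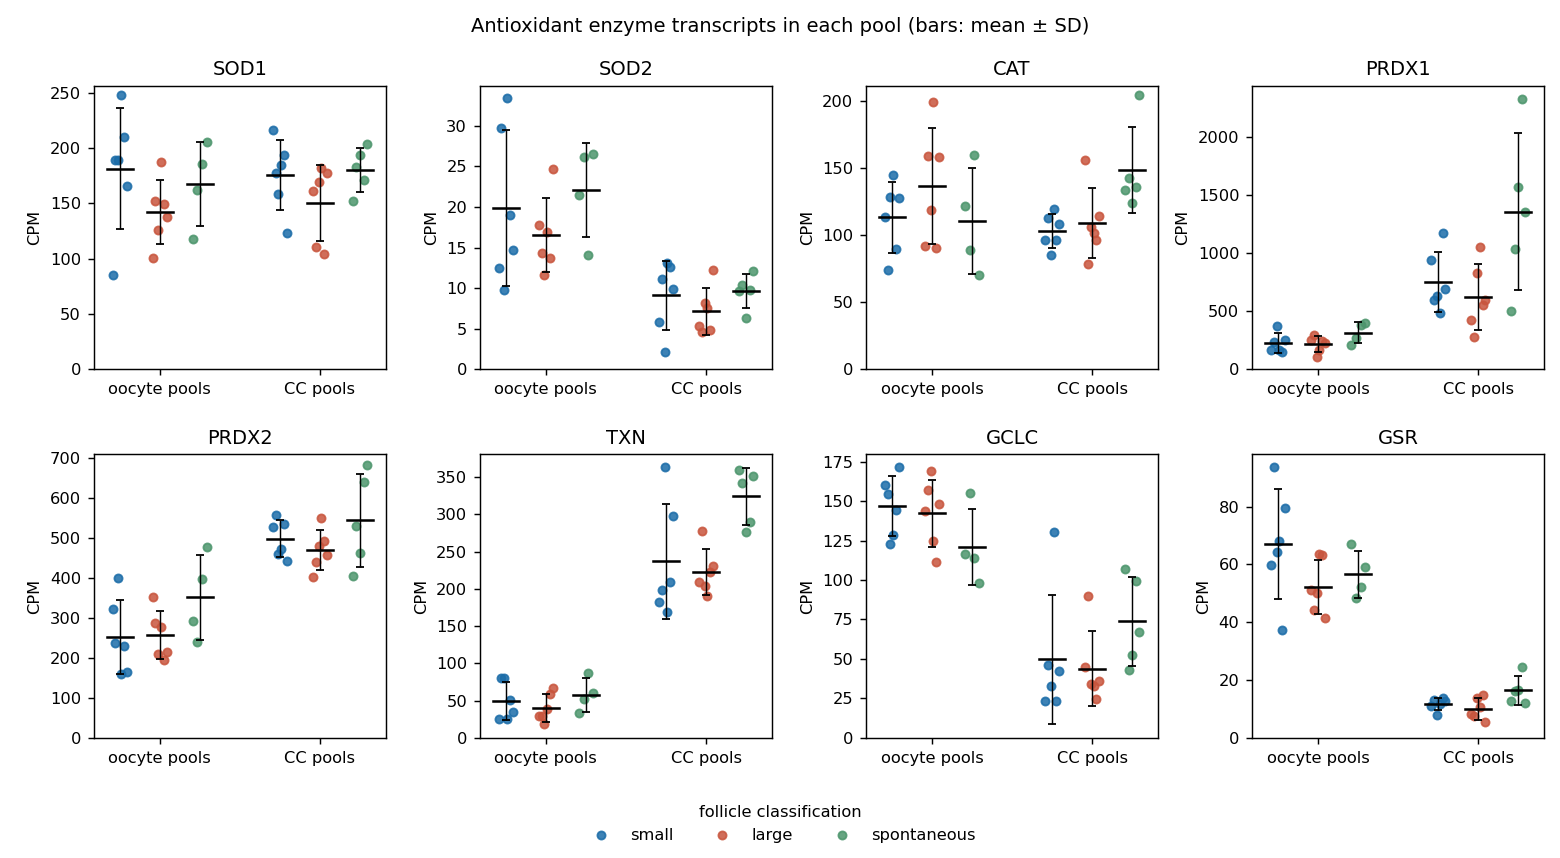
CPM (linear axis from 0) of 8 antioxidant enzymes in each of 16 oocyte and 17 CC pools, coloured by follicle classification, with horizontal bars at the mean and error bars of 1 SD. TXN in CC (169 to 363 CPM) lies above every oocyte pool (17.96 to 87.2 CPM), and GSR in CC (5.42 to 24.7 CPM) lies below every oocyte pool (37.2 to 93.7 CPM). For CAT all 5 spontaneous CC pools lie above all 6 small CC pools, which was lost with the mitochondrially encoded genes left out.

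SOD1, the copper and zinc superoxide dismutase of the cytosol, was at 123 to 216 CPM in small CC pools (median 181) and 104 to 182 CPM in large ones (median 165). The 5 spontaneous CC pools had 152, 183, 194, 171 and 203 CPM. The 3 ranges overlapped throughout, and no spontaneous pool exceeded the highest small pool. The fold change of SOD1 was 0.05 ± 0.17 (log2, SE) from small to spontaneous CC and 0.29 ± 0.18 from large to spontaneous CC, with p-values of 0.754 and 0.124 in limma. In oocytes SOD1 lay at 85.5 to 248 CPM in small pools (median 189) and 100.4 to 187 CPM in large pools (median 144), and at 118, 162, 186 and 206 CPM in the spontaneous pools. Its largest fold change in oocytes was -0.30 ± 0.22 from small to large, and no oocyte comparison had a limma p under 0.169.

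SOD2, the manganese enzyme of the mitochondrial matrix, was supported by few reads in CC, from 4 in small replicate 3 to 59. Its CC values were 2.09 to 13.1 CPM in small pools (median 10.5), 4.63 to 12.2 CPM in large pools (median 6.47) and 9.61, 10.3, 6.35, 9.80 and 12.1 CPM in spontaneous pools. All 3 classifications overlapped. From large to spontaneous CC the fold change was 0.43 ± 0.31 (limma p of 0.184), and 4 of 5 spontaneous pools exceeded the median of the large pools. In oocytes SOD2 was at 9.79 to 33.4 CPM in small, 11.7 to 24.7 CPM in large and 14.0 to 26.5 CPM in spontaneous pools, and its limma p was between 0.397 and 0.715 in the 3 comparisons.

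Catalase (CAT), which splits hydrogen peroxide without a carrier, was the enzyme that separated small and spontaneous CC. Its level was 84.7 to 119 CPM in the 6 small pools (median 102), and 134, 143, 124, 136 and 204 CPM in the 5 spontaneous pools. In these CPM every spontaneous pool lay above every small pool, the lowest of them by a narrow margin. Replicate 5 stood far above the other spontaneous pools. Mean CPM rose from 103 ± 12.7 (SD, n = 6) to 148 ± 32.1 (SD, n = 5), a fold change of 0.51 ± 0.17 (log2, SE) with a limma p of 0.0087 and an adjusted p of 0.418. The exact permutation test of the means, two-sided, gave p = 0.0022, the smallest p this design allows. CAT was the 1 enzyme of 8 called in this comparison, in which 2.38% of all transcripts were called and 1.1% had all spontaneous above all small pools. Of the calls over all transcripts 221 were higher and 10 lower in spontaneous pools.

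The call for CAT depended on the scaling, and so did the separation of small from spontaneous CC. Small replicate 3, the lowest small pool, had 44.0% of its reads on mitochondrially encoded genes. Spontaneous replicate 3, the lowest spontaneous pool, had 14.3%. With these genes left out small replicate 3 lay above spontaneous replicate 3. The exact permutation test used CPM with these genes in the total. With the mitochondrially encoded genes left out the fold change of CAT was 0.33 (limma p of 0.0468), against a background of 69 higher and 58 lower calls. Median-of-ratios scaling gave 0.35 (p of 0.0378). Without spontaneous replicate 5 it was 0.39 (p of 0.0381), and the limma p was also above 0.01 without each of small replicates 1, 2, 3 and 5 and spontaneous replicates 2 and 4. The large CC pools had 78.7 to 156 CPM of CAT (median 104), and 1 of the 5 spontaneous pools exceeded the highest of them, large replicate 1. The fold change from large to spontaneous CC was 0.45 ± 0.19, with a limma p of 0.026.

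In oocytes CAT had its highest mean in the large pools, 136 ± 43.1 CPM (SD, n = 6), with values from 90.2 to 199 CPM and a median of 139. Small oocyte pools had 74.2 to 145 CPM (median 120) and the spontaneous ones 122, 88.9, 159.8 and 70.1 CPM. The groups overlapped, and the fold change from large to spontaneous oocytes was -0.31 ± 0.26 (limma p of 0.243). The effect in CC minus that in oocytes for this pair of classifications was 0.76 ± 0.34, with a limma p of 0.0326 and an adjusted p of 0.881 for the interaction, which did not pass.

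Of the glutathione peroxidases in the list, GPX4, which reduces lipid hydroperoxides in membranes and is a selenoprotein of sperm and other tissues, had a row with almost no reads. It held 1 read in 1 of 16 oocyte pools, small replicate 3, and 16 reads in 5 of 17 CC pools, with a highest value of 1.497 CPM in small replicate 5. Whether that row covers the transcript as it is expressed in these cells was not tested, so the values are not read as the level of GPX4, and no comparison was made.

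PRDX1, a peroxiredoxin of the cytosol and nucleus that is reduced by thioredoxin, varied strongly between pools of 1 classification, with a coefficient of variation of 45.0% in large and 49.8% in spontaneous CC. The values were 276 to 1048 CPM in large CC (median 576), 485 to 1174 CPM in small CC (median 661) and 497, 1038, 1568, 2325 and 1348 CPM in spontaneous CC. Replicates 3, 4 and 5 of the spontaneous pools lay above every small and every large pool, whereas replicate 1 lay below the median of both. Mean CPM rose from 621 ± 280 (SD, n = 6) in large to 1355 ± 675 (SD, n = 5) in spontaneous pools. This was a fold change of 1.08 ± 0.35 (log2, SE), with a limma p of 0.0067, an adjusted p of 0.567 and a two-sided exact permutation p of 0.0325. PRDX1 and TXN were the 2 enzymes of 8 called here, where 1.66% of all transcripts were called, 141 higher and 20 lower in spontaneous pools.

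Between small and spontaneous CC the fold change of PRDX1 was 0.74 ± 0.32, with a limma p of 0.0303 and an exact permutation p of 0.0693. The call against large pools was retained without spontaneous replicate 1 (1.403, p of 0.0004 in limma). It was lost without any 1 of spontaneous replicates 3, 4 and 5 or large replicates 1, 2, 5 and 6, and without spontaneous replicate 4 the fold change was 0.85 (p of 0.0262). Its p was 0.0107 with median-of-ratios scaling and 0.0281 without the filter on low values, and 0.0069 in edgeR's quasi-likelihood test on the recovered reads.

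PRDX1 in oocytes also had its highest values in spontaneous pools, but the difference did not pass. The 4 spontaneous oocyte pools had 209, 273, 380 and 397 CPM, the small pools 148 to 370 CPM (median 203) and the large pools 109 to 296 CPM (median 233). Only spontaneous replicates 3 and 4 stood above every small and large pool. The fold change from large to spontaneous oocytes was 0.57 ± 0.23 (limma p of 0.0221) and that from small to spontaneous oocytes 0.52 ± 0.24 (limma p of 0.0369). Without small replicate 3, the small pool with the highest PRDX1 value, the latter was 0.68 with a p of 0.0054. Between CC and oocytes the large to spontaneous effect on PRDX1 differed by 0.52 ± 0.49 (interaction p of 0.295 in limma).

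PRDX2, another cytosolic peroxiredoxin that is abundant in red blood cells, had a coefficient of variation of 9.42% in small, 10.6% in large and 21.5% in spontaneous CC. It was at 442 to 557 CPM in small CC (median 500.3), 404 to 550 CPM in large CC (median 469) and 406, 529, 462, 641 and 683 CPM in spontaneous CC. Spontaneous replicates 4 and 5 were above all small and large pools and the other 3 lay among them. Markers of red blood cells summed to 1.78 to 9.97 CPM in the CC pools. The fold change of PRDX2 was 0.10 ± 0.17 from small and 0.19 ± 0.16 from large to spontaneous CC (limma p-values of 0.548 and 0.258).

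The oocyte pools gave PRDX2 a pattern close to that of PRDX1. Spontaneous oocyte pools had 293, 239, 398 and 477 CPM, small pools 160.5 to 399 CPM (median 233) and large pools 195 to 352 CPM (median 247). Replicate 4 of the spontaneous pools was above all others and the rest overlapped. The fold change was 0.51 ± 0.24 from small and 0.44 ± 0.20 from large to spontaneous oocytes, with limma p-values of 0.0406 and 0.0374. Without small replicate 3 the first of these was 0.66 with a p of 0.0073. PRDX1 and PRDX2 were the enzymes with an unadjusted limma p under 0.05 in both comparisons with spontaneous oocytes (2 of 8, against 4.51% and 4.87% of all transcripts), whereas 0 of 8 passed the threshold of 0.01, against 0.774% and 0.943%. In edgeR's quasi-likelihood test 0 of 8 passed as well (against 0.556% and 0.903%), and in DESeq2 0 of 8 (against 1.2% and 1.8%).

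TXN, thioredoxin, which passes electrons to peroxiredoxins and other proteins, was 191 to 277 CPM in the large CC pools (median 216) and 360, 342, 276, 290 and 351 CPM in the spontaneous ones. The overlap was a single pair, since spontaneous replicate 3 lay just below large replicate 2. Mean CPM rose from 223 ± 30.3 (SD, n = 6) to 324 ± 38.1 (SD, n = 5), a fold change of 0.54 ± 0.14 (log2, SE). The limma p was 0.0016 with an adjusted p of 0.515, and the two-sided exact permutation p was 0.0065. The fold change was 0.50 to 0.61 over the fits that each left out 1 pool, and the nominal p stayed under 0.01 in all 11 of these fits. It was 0.44 with a p of 0.0102 under median-of-ratios scaling and 0.44 with a p of 0.0127 in edgeR.

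The small CC pools had 169 to 363 CPM of TXN (median 204), with small replicate 3 above all spontaneous pools and the rest, except replicate 6 (298 CPM), below them. Small replicate 3 was the CC pool with the fewest reads and the largest share of mitochondrially encoded reads (44.0%). With the mitochondrially encoded genes left out its TXN value rose from 363 to 648 CPM, the highest in CC. The part of the low depth in this value was not tested. From small to spontaneous CC the fold change was 0.50 ± 0.20 (limma p of 0.023), and TXN passed the threshold when small replicate 3 was left out. In oocytes TXN was at 25.2 to 80.9 CPM in small pools (median 43.1), 17.96 to 66.4 CPM in large pools (median 34.3) and 32.7, 51.6, 87.2 and 60.4 CPM in spontaneous pools. These groups overlapped, and the limma p was between 0.147 and 0.470 in the 3 comparisons.

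GCLC, the catalytic subunit of glutamate-cysteine ligase, which starts glutathione synthesis, showed a pool far above the rest in both small and large CC. Small CC pools had 23.3 to 131 CPM (median 37.5) and large CC pools 24.7 to 90.0 CPM (median 35.2), with the highest values in small replicate 4 and large replicate 2. The spontaneous CC pools had 107, 42.7, 52.5, 99.3 and 67.0 CPM, all above the medians of the small and the large pools. GCLC thus had fold changes of 0.75 ± 0.37 from small and 0.77 ± 0.30 from large to spontaneous CC, with limma p-values of 0.0582 and 0.0198. Without small replicate 4 the first was 1.08 (p of 0.0013), and without large replicate 2 the second was 1.003 (p of 0.0009).

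In oocytes GCLC was steadier and had its lowest mean in the spontaneous pools. Small oocyte pools had 123 to 171 CPM (median 149), large ones 111 to 169 CPM (median 146) and the spontaneous ones 116, 155, 114 and 98.0 CPM. Fold changes were -0.29 ± 0.22 from small and -0.24 ± 0.21 from large to spontaneous oocytes (limma p-values of 0.205 and 0.265), and the groups overlapped. The effect in CC minus that in oocytes was 1.04 ± 0.47 for small against spontaneous and 1.01 ± 0.39 for large against spontaneous, with interaction p-values of 0.0362 and 0.0155 in limma and adjusted p-values of 0.823 and 0.854. No enzyme passed the threshold of 0.01 for such a difference between cell types, against 0.854% of transcripts for small and large, 1.19% for small and spontaneous and 1.31% for large and spontaneous pools. At an unadjusted p under 0.05 there were 0, 1 (GCLC) and 2 (GCLC and CAT) of the 8, against 3.8%, 6.02% and 5.18% of transcripts.

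GSR, glutathione reductase, which regenerates glutathione with NADPH, was low in CC, at 15 to 136 reads a pool. Small CC pools had 7.85 to 13.7 CPM (median 12.3), large CC pools 5.42 to 14.8 CPM (median 9.42) and spontaneous CC pools 12.7, 16.2, 16.5, 24.7 and 11.9 CPM. Spontaneous replicates 2, 3 and 4 were above every small and every large pool and the others lay among them. For GSR the fold changes were 0.43 ± 0.26 from small and 0.68 ± 0.30 from large to spontaneous CC (limma p-values of 0.122 and 0.0359, exact permutation p-values of 0.0433 and 0.0325). In oocytes GSR was at 37.2 to 93.7 CPM in small pools, 41.4 to 63.6 CPM in large pools and 66.9, 48.4, 52.3 and 59.0 CPM in spontaneous pools. Its fold change there was between -0.32 and 0.12 in the 3 comparisons, and no limma p was under 0.233.

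**Figure D2:**
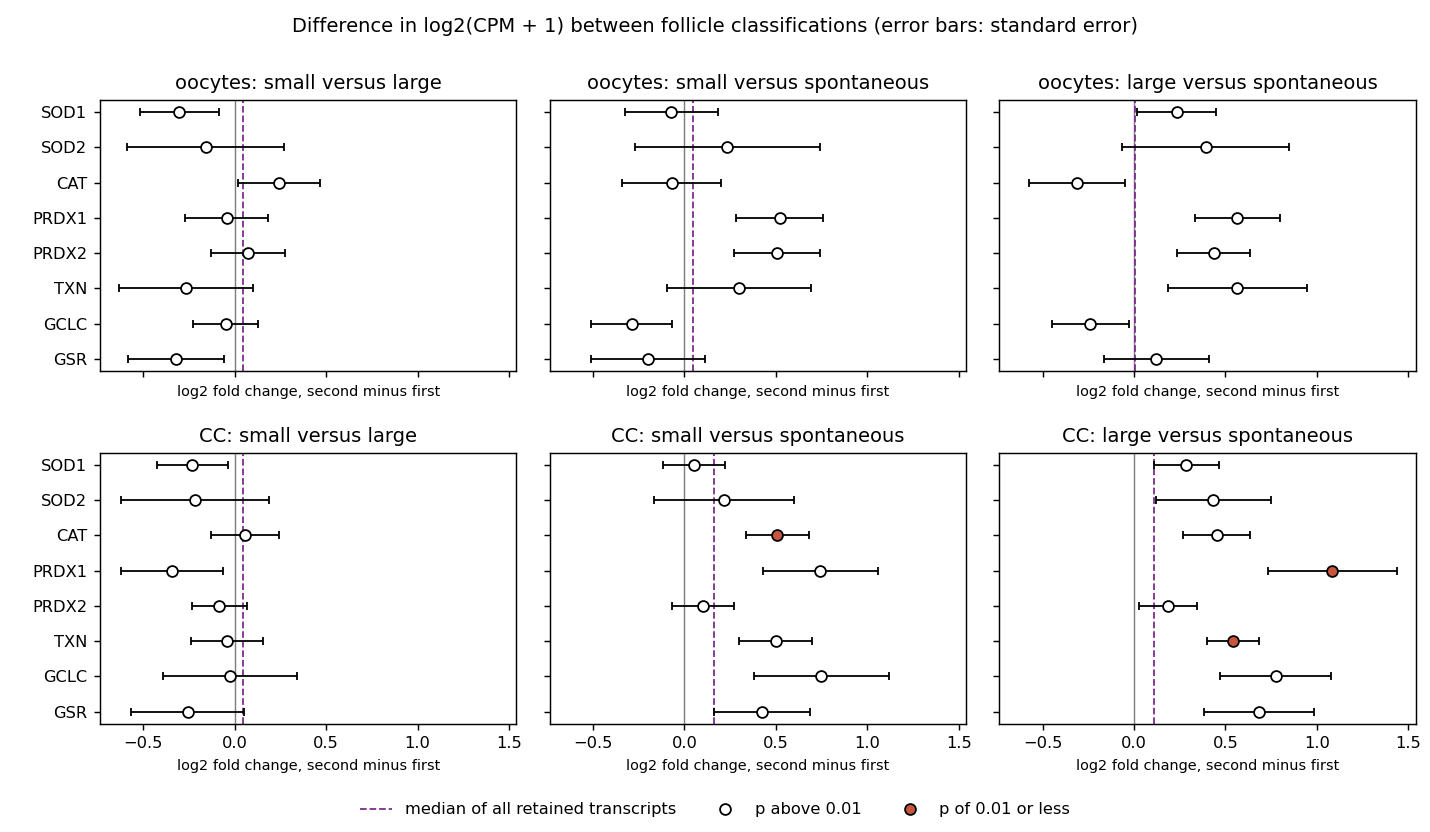
Difference in log2(CPM + 1) of 8 antioxidant enzymes (second minus first classification, error bars of 1 SE) in 6 comparisons, with the median of all retained transcripts as a dashed line and filled points for a limma p of 0.01 or less. All 8 points lie above 0 in both CC comparisons with spontaneous pools, and the filled ones are CAT at 0.51, PRDX1 at 1.08 and TXN at 0.54.

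Across the 8 enzymes, the fold change was above 0 for all 8 in both CC comparisons with spontaneous pools, which share the spontaneous pools. The median was 0.46 from small and 0.50 from large to spontaneous CC, beside 0.16 and 0.11 over all transcripts, of which 71.9% and 65.6% were above 0. An unadjusted limma p under 0.05 was found for 3 of the 8 enzymes from small and 5 of the 8 from large to spontaneous CC, against 8.55% and 7.07% of all transcripts. At the threshold of 0.01, edgeR called 0 of 8 and 1 of 8 (PRDX1, against 1.32% and 1.31%) and DESeq2 0 of 8 and 2 of 8 (PRDX1 and TXN, against 2.23% and 2.05%). With the mitochondrially encoded genes left out, the median of the enzymes was 0.30 beside -0.0029 over all transcripts from small to spontaneous CC, with 6 of 8 above 0, and 0.44 beside 0.06 from large to spontaneous CC, with 8 of 8 above 0. SOD1 and PRDX2 were the enzymes whose small to spontaneous change turned below 0 under that scaling (-0.12 and -0.07). Between small and large CC 1 of 8 fold changes was above 0 (median -0.15), beside 56.0% of all transcripts (median 0.045). There 0 of 8 had a limma p under 0.05, against 4% of all transcripts, or passed in edgeR (0.649%) or DESeq2 (1.15%). In oocytes 2 of 8 were above 0 from small to large (median -0.10), beside 55.5% of all transcripts (median 0.046). There 0 of 8 had a limma p under 0.05 (against 4.11%) or passed in edgeR (0.526%) or DESeq2 (1.12%). Fold changes in oocytes were above 0 for 4 of 8 from small to spontaneous pools (median 0.08), beside 55.0% of all transcripts (median 0.048). From large to spontaneous oocytes 6 of 8 were above 0 (median 0.31), beside 50.9% of all transcripts (median 0.0078).

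**Figure D3:**
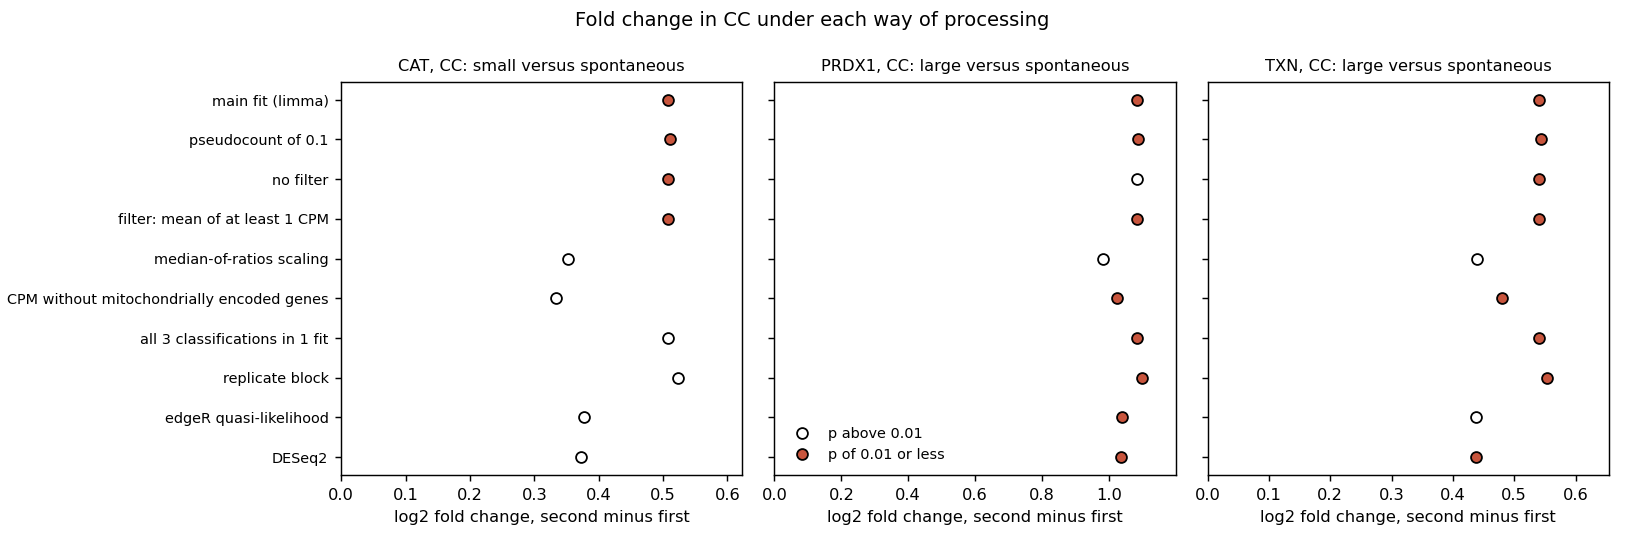
Log2 fold change of CAT (small to spontaneous CC), PRDX1 and TXN (large to spontaneous CC) under the main processing and 9 alternatives, with filled points for a p of 0.01 or less. CAT lies between 0.33 and 0.52 and is filled in 4 of 10 settings, PRDX1 lies between 0.98 and 1.10 and is filled in 8, and TXN lies between 0.44 and 0.55 and is filled in 8.

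Blood and stromal cells could enter CC aspirates, and their markers were summed in each pool. White blood cell markers (7 of 12 above 5 CPM in mean) summed to 35.6 to 216 CPM in small, 32.01 to 239 CPM in large and 53.7 to 234 CPM in spontaneous CC. Theca markers (4 to 5 of 6 above 5 CPM) summed to 492 to 1600 CPM in small, 782 to 1398 CPM in large and 1013 to 3586 CPM in spontaneous CC, the last value in spontaneous replicate 2. Of that list CYP17A1 was at most 0.781 CPM in CC, with a median of 0. LUM, INSL3 and COL1A1 had medians of 371, 360 and 235 CPM, and COL1A2 had a median of 4.31 and a highest value of 2117 CPM. The sum is therefore not read as the amount of theca cells. Endothelial markers (1 of 7 above 5 CPM) summed to 7.38 to 70.8 CPM in CC. The part of these cells in the differences of CAT, PRDX1 and TXN was not tested. For any of the enzymes, fewer cells of a type and less RNA per cell cannot be told apart in pools.

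The enzymes did not vary as 1 block from pool to pool. Over the 28 pairs of the 8 enzymes the correlation of log2(CPM + 1) across the 17 CC pools had a median Pearson r of 0.29 (range -0.20 to 0.71), and across the 16 oocyte pools a median of -0.05 (range -0.49 to 0.66). The highest in CC were PRDX1 with PRDX2 (0.71) and PRDX1 with GSR (0.67), and in oocytes PRDX1 with TXN (0.66) and PRDX1 with PRDX2 (0.58). These points share libraries, and therefore depth and scaling, and the values are a description. Oocyte small replicate 3, with the highest summed CPM of cumulus and granulosa markers among the oocyte pools, was also the highest small oocyte pool for PRDX1, PRDX2 and TXN. Some of these markers were higher in oocytes than in CC, and the part of CC in these values was not tested.

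The transcripts most like TXN across the 17 CC pools were ELOVL6 (Pearson r of 0.85), TMEM97 (0.79) and AMH (0.75). Across the 16 oocyte pools those most like PRDX1 were COX5B (0.86), RPL36A (0.86) and MYL6 (0.85). TXN and PRDX1 were taken because they had the smallest limma p of the 8 enzymes in the respective cell type.

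Set side by side, the 2 cell types differed in level most for TXN and GSR. TXN was at 169 to 363 CPM in CC (median 231) and 17.96 to 87.2 CPM in oocytes (median 44.9), so that every CC pool lay above every oocyte pool and the mean was 5.34-fold higher. GSR was the opposite, at 37.2 to 93.7 CPM in oocytes (median 59.5) and 5.42 to 24.7 CPM in CC (median 12.7), every oocyte pool lying above every CC pool and the mean being 4.71-fold higher in oocytes. Of the 8 enzymes, 1 thus lay higher in all CC pools and 1 in all oocyte pools, against 13.4% and 22.9% of the 11431 genes compared. The tables were scaled separately, and no test was made between them.

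The other enzymes overlapped between the cell types. PRDX1 (276 to 2325 CPM in CC, 109 to 397 in oocytes) was 3.63-fold and PRDX2 (404 to 683 CPM in CC, 160.5 to 477 in oocytes) 1.80-fold higher in mean in CC. GCLC (98.0 to 171 CPM in oocytes, 23.3 to 131 in CC) was 2.53-fold and SOD2 (9.79 to 33.4 CPM in oocytes, 2.09 to 13.1 in CC) 2.24-fold higher in mean in oocytes. SOD1 and CAT had ratios of CC to oocyte mean of 1.03 and 0.977. With the mitochondrially encoded genes left out, these ratios became 1.30 and 1.22. The median over all genes moved from -0.15 to 0.16 (log2, CC minus oocytes). PRDX2 then joined TXN above all oocyte pools, while the share of all genes lying there rose from 13.4% to 18.04%. The counts also changed without oocyte spontaneous replicate 4, when PRDX2 no longer overlapped, and without CC large replicate 2, when PRDX1 no longer overlapped, each giving 2 enzymes above all oocyte pools.

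**Figure D4:**
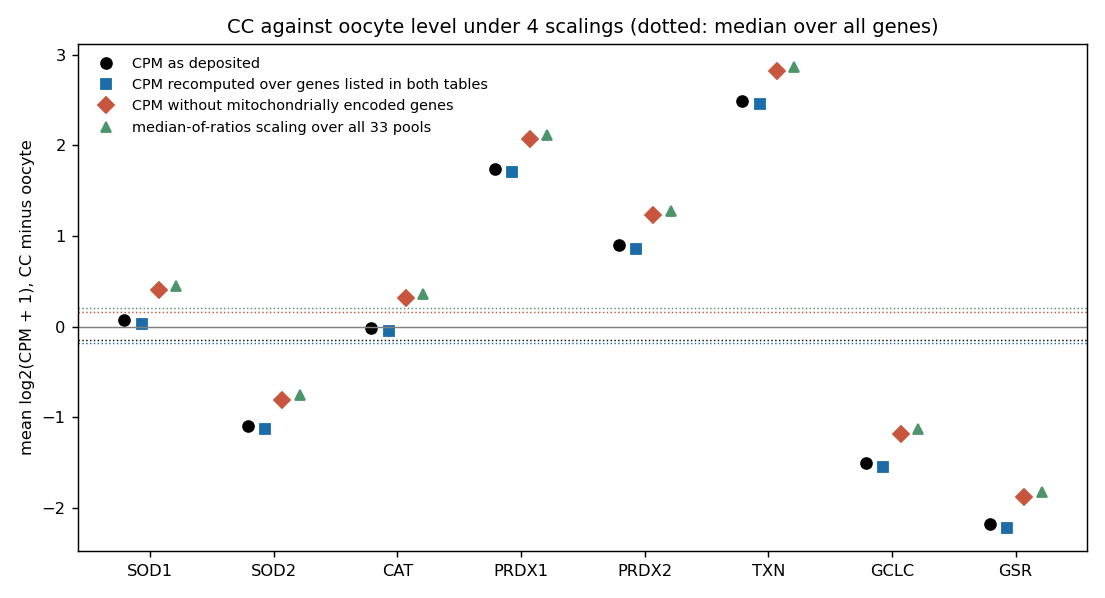
Mean log2(CPM + 1) in 17 CC pools minus that in 16 oocyte pools for 8 antioxidant enzymes under 4 scalings, with dotted lines at the median over all genes under each. TXN at 2.49 and PRDX1 at 1.74 stay above 0 and GSR at -2.18, GCLC at -1.51 and SOD2 at -1.095 below it under all 4 scalings, while CAT moves from -0.01 to 0.36.

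The wider redox system was examined through 5 further lists of genes, of which 54 rows passed the filter in oocytes and 67 in CC. Of these, limma called 0 between small and large follicles in either cell type, with 2 of 54 and 3 of 67 at an unadjusted p under 0.05 (against 4.11% and 4% of all transcripts). From small to spontaneous pools 2 of 54 were higher in oocytes (against 0.774% of all transcripts called) and 1 of 67 in CC (against 2.38%). From large to spontaneous pools 1 of 54 was higher in oocytes (against 0.943%) and 3 of 67 in CC (against 1.66%). None was lower. The fold change was above 0 for 50 and 54 of the 67 in the CC comparisons with spontaneous pools (medians 0.19 and 0.27), beside 71.9% and 65.6% of all transcripts (medians 0.16 and 0.11). It was above 0 for 17 of 17 other glutathione genes from large to spontaneous CC, where the share of all transcripts was the same 65.6%.

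Among the other superoxide and peroxide enzymes (7 retained in oocytes and 9 in CC), PRDX5, a peroxiredoxin of mitochondria and peroxisomes, rose from 7.47 ± 7.45 CPM (SD, n = 6) in small to 28.5 ± 15.5 CPM (SD, n = 4) in spontaneous oocyte pools. The fold change was 1.97 ± 0.66 (limma p of 0.0059, adjusted p of 0.915), and it passed in 11 of 19 alternatives. No other member of that list was called. PRDX4 (139 ± 28.2 CPM, SD, n = 17) and PRDX6 (86.4 ± 14.7 CPM) had the highest means of the list in CC, and PRDX3 (77.9 ± 30.8 CPM, SD, n = 16) and PRDX6 (25.1 ± 17.4 CPM) in oocytes. PRDX4 and PRDX6, retained in both cell types, were above all oocyte pools in every CC pool, as were 13.4% of all genes.

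Of the other glutathione genes (14 retained in oocytes and 17 in CC), 3 were called. GSTM3, a glutathione S-transferase, was at 127.9 to 584 CPM in small, 108 to 505 CPM in large and 312 to 1131 CPM in spontaneous oocyte pools, with fold changes of 0.96 ± 0.32 and 1.32 ± 0.36 to spontaneous pools (limma p-values of 0.0057 and 0.0009, adjusted p-values of 0.915 and 0.847). These calls held in 11 and 16 of 19 alternatives, and both were lost without spontaneous replicate 3. MGST1, a microsomal transferase, rose from 2.997 ± 3.09 CPM (SD, n = 6) in large to 12.54 ± 6.23 CPM (SD, n = 5) in spontaneous CC, a fold change of 1.90 ± 0.50 (limma p of 0.0014, adjusted p of 0.515), and it passed in all 20 alternatives. Few reads supported MGST1 in large CC. Its lowest CC value, 0.712 CPM in large replicate 2, was under the 1.07 CPM that 3 reads give in that pool. GSTA3, a transferase also known for steroid isomerisation, rose from 446 ± 173 CPM to 702 ± 176 CPM between large and spontaneous CC (0.70 ± 0.22, limma p of 0.0062, adjusted p of 0.567), and passed in 8 of 20 alternatives. The small CC pools had a higher mean of GSTA3 than the spontaneous ones, and the highest CC value, 1892 CPM, was among them. GSTA3 was not called from small to spontaneous CC. With all classifications in 1 limma fit, the p from large to spontaneous CC was 0.0456. GSTA3 reads may be shared with its near relatives, since how the authors' counting treated reads with several matches is not given in the sources used here. GCLM, the partner subunit of GCLC, had a mean of 135 ± 43.2 CPM in CC and was above all oocyte pools there, opposite in direction to the higher mean of GCLC in oocytes. GLO1 (443 ± 50.0 CPM) and GSTM3 (390 ± 273 CPM) had the highest means of the list in oocytes and lay above all CC pools. Of the 18 genes of the list retained in either cell type, 6 lay above all oocyte pools in CC, against 13.4% of all genes. In oocytes 4 of the 18 lay above all CC pools, against 22.9%.

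In the list of NADPH supply and the NRF2 system (17 retained in oocytes and 20 in CC), IDH1, the cytosolic isocitrate dehydrogenase that makes NADPH, was called in both CC comparisons with spontaneous pools. Its mean was 1027 ± 165 CPM in small, 990 ± 309 CPM in large and 1519 ± 319 CPM in spontaneous CC, with fold changes of 0.55 ± 0.19 and 0.64 ± 0.21 (limma p-values of 0.0086 and 0.0073, adjusted p-values of 0.418 and 0.567). Each of these calls held in 6 of 20 alternatives, and with the mitochondrially encoded genes left out the fold changes were 0.38 and 0.58 (limma p-values of 0.0616 and 0.012). IDH1 and FTL, the ferritin light chain (1156 ± 219 CPM), had the highest means of this list in CC, and FTL (1239 ± 233 CPM) and MAFG (224 ± 39.5 CPM) in oocytes.

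The other thioredoxin and glutaredoxin genes (7 and 9 retained) and the genes of methionine repair and selenoprotein machinery (9 and 12 retained) had no called member. TXNIP, which binds and inhibits thioredoxin, was at 685 ± 166 CPM in CC and 84.7 ± 30.9 CPM in oocytes without overlap, in the same direction as TXN. Of the 9 genes of its list retained in either cell type, it was the 1 above all oocyte pools in CC, against 13.4% of all genes. GLRX3 was at 59.9 ± 11.3 CPM in CC and 80.2 ± 19.7 CPM in oocytes. SELENOT had 161 ± 33.8 CPM in CC and 138 ± 29.5 CPM in oocytes, SELENOK 87.6 ± 23.8 CPM in CC, and SEPSECS 102 ± 32.6 CPM in oocytes.

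**Figure D5:**
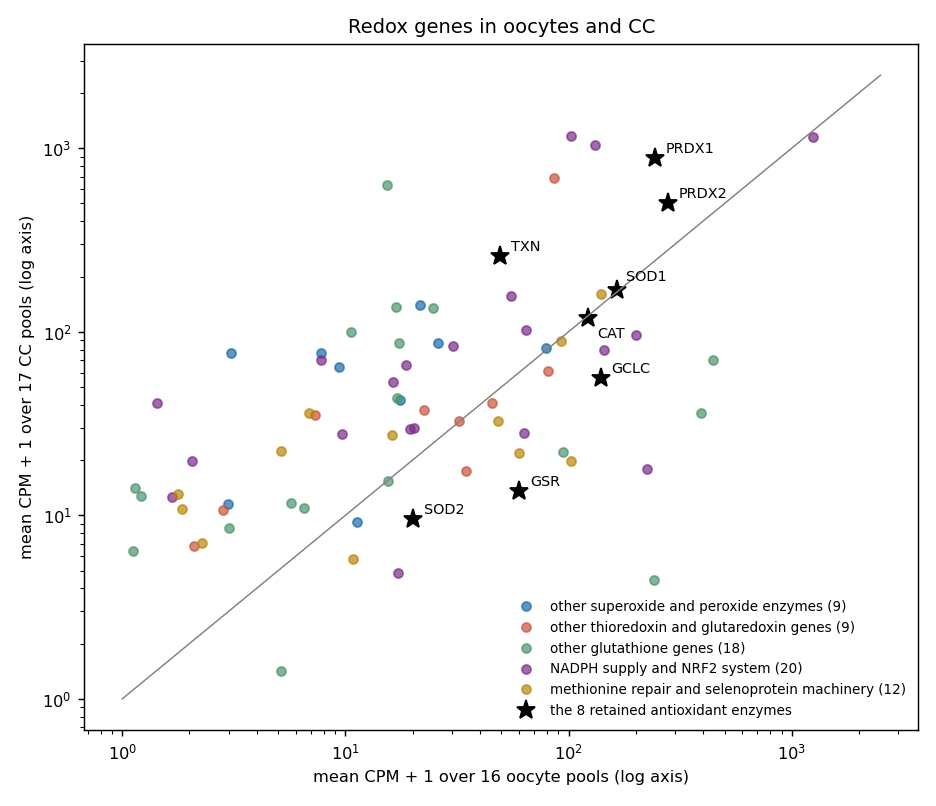
Mean CPM + 1 over 16 oocyte pools against that over 17 CC pools (both axes logarithmic) for the genes of 5 further redox lists (circles) and the 8 antioxidant enzymes (stars), with a line of equality. TXN, PRDX1 and PRDX2 lie above the line, GSR, GCLC and SOD2 below it, and SOD1 and CAT close to it.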

How the data were processed

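Single-end reads of amplified cDNA were trimmed by the authors (fqtrim), mapped with Hisat2 to the UMD3.1 assembly, assigned to Ensembl genes by FeatureCounts and deposited as CPM in 1 table for oocytes and 1 for CC, scaled separately. Strand handling is not given in the sources used here. Whole reads were recovered for 100% of values (tolerance 0.01). Columns were matched to pools by name, with 0 unmatched. The members and gene lists were chosen with earlier results of these data known. Named from the other lists are genes called in a comparison and the 2 of highest mean CPM in each list and cell type. RefSeq names were used without coordinates, as its assembly differs from UMD3.1.

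Pairs of classifications were tested with limma 3.58.1 (R 4.3.3, trend) on log2(CPM + 1) without covariates, over transcripts reaching 5 CPM in 4 or more oocyte or 5 or more CC pools, at a nominal p of 0.01. The study used that threshold too, but required it in both edgeR and DESeq2. Benjamini-Hochberg adjustment ran over all retained transcripts. Alternatives were edgeR 4.0.16 (quasi-likelihood) and DESeq2 1.42.0 on recovered reads, a pseudocount of 0.1, other filters and scalings, 1 fit of all classifications, a replicate block and each pool left out. The difference between cell types used an unpaired interaction fit. The study pooled CC from the same complexes as the oocytes, but the labels do not pair the pools. That fit therefore treated oocyte and CC pools from the same cows as independent. The limma test of pairs was tried on simulated reads before use. Those reads had larger fold changes than the ones called here and no difference in the mitochondrial share between pools. The trial therefore does not show how the test performs on changes of the size reported here. No pair of replicate pools agreed within sampling noise (the lowest chi-square per degree of freedom was 13.4).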

Additional observations from a re-analysis of the deposited data

Results flagged for a closer look

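Of the 48 groups of 4 to 6 pools (8 enzymes in 6 groups), 3 had a pool whose gap to its nearest neighbour was large against the range of the group by Dixon's test. Chance flags about 1 in 20 groups. CAT in spontaneous CC had its highest value, 204 CPM, in replicate 5, and without it the fold change from small pools was 0.39. GCLC had 131 CPM in small CC replicate 4 and 90.0 CPM in large CC replicate 2. Without them its fold changes to spontaneous CC were 1.08 and 1.003.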

How the results depend on the processing

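From small to spontaneous CC, 1 enzyme was called, and 0 were with median-of-ratios scaling, without mitochondrially encoded genes, in 1 fit of all classifications, with the replicate block, in edgeR and in DESeq2 (0 to 2 with each pool left out). From large to spontaneous CC, 2 were called, against 1 without the filter, 0 with median-of-ratios scaling, 1 in edgeR and 1 to 3 with each pool left out. Leaving out each pool gave 0 to 2 calls from small and 0 to 1 from large to spontaneous oocytes, and 0 to 1 for each difference between cell types involving spontaneous pools. The 2 calls in oocytes came without small replicate 3, where only that 1 fit had to pass and not also a fit with all pools. Enzymes above all oocyte pools in CC were 1, against 2 without mitochondrially encoded genes or with median-of-ratios scaling, and 1 to 2 with each pool left out. The share of all genes above all oocyte pools was 13.4%, against 18.04% without mitochondrially encoded genes and 18.64% with median-of-ratios scaling.

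Some small fold changes turned sign. From small to spontaneous CC, SOD1 was -0.10 with median-of-ratios scaling, -0.12 without mitochondrially encoded genes, -0.044 with the replicate block, -0.12 in edgeR and -0.12 in DESeq2, PRDX2 was -0.053, -0.072, -0.042 and -0.047 in the same settings without the block, and SOD2 was -0.044 in edgeR and -0.058 in DESeq2. From small to large, CAT in CC was -0.057 without mitochondrially encoded genes and PRDX2 in oocytes -0.0044 in DESeq2. With each pool left out, small to large oocyte values ranged from -0.15 to 0.14 for PRDX1, -0.32 to 0.012 for SOD2, -0.043 to 0.22 for PRDX2 and -0.10 to 0.018 for GCLC. Small to spontaneous oocyte values ranged from -0.27 to 0.089 for SOD1 and -0.27 to 0.12 for CAT. Small to large CC values ranged from -0.25 to 0.30 for GCLC, -0.13 to 0.092 for TXN and -0.054 to 0.14 for CAT, and small to spontaneous CC values from -0.091 to 0.35 for SOD2 and -0.044 to 0.12 for SOD1. The cause of these changes was not tested.

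Over all transcripts, the calls from small to spontaneous CC numbered 231, against 126 with median-of-ratios scaling, 127 without mitochondrially encoded genes and 128 in edgeR. In small to large CC they were 79, against 121 without the filter and 137 in 1 fit of all classifications. In oocytes they were 66 from small to large (100 without the filter, 113 in DESeq2), 78 from small to spontaneous (42 with the replicate block, 121 in DESeq2) and 95 from large to spontaneous (148 without the filter, 181 in DESeq2). The calls from large to spontaneous CC split 141 higher and 20 lower, against 61 and 56 with median-of-ratios scaling.

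Pools with the same replicate number deviated together in few cases, with correlations of -0.19 to 0.22 over 16 pairs in CC and -0.13 to 0.14 over 14 pairs in oocytes, so the numbers were not taken to pair the pools. In 3 of the 16 pairs in CC and 2 of the 14 in oocytes the first pool correlated best with the pool of its own number. The read depth limits SOD2, GSR and MGST1 in CC.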
